A study of Mus musculus with 16 samples.

Results

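The 4 Id genes (Id1, Id2, Id3 and Id4) and 5 feedback or response genes of TGF-beta and BMP signalling (Smad6, Smad7, Skil, Tgfbi and Bambi) were followed in 4TO7 cells, which derive from a mammary carcinoma of the mouse. Members were taken by name, through every probe that the array carries for them. The array held 14 probes for the 9 genes, and 8 of the 9 were among the 18993 genes tested, out of 27670 on the array. Bambi was not well above background on any of the 16 arrays. The study asked how overexpression of miR-200 microRNAs changes gene expression, with cells overexpressing E-cadherin (CDH1) for comparison. The groups were Cluster 1 and its Puro vector, Cluster 2 and its Hygro vector, Clusters 1+2 and the Hygro and Puro vectors together, and CDH1 and a Puro vector of its own, with 2 arrays each. All cells were grown in medium with 10% serum, and the vectors were of the retroviral pMSCV type. Cluster 1 and CDH1 cells are labelled as stable overexpressors. Whether the repeats of a group, called biological replicates in the design, came from separate infections is not stated, nor is the species of the CDH1 sequence.

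Id proteins are helix-loop-helix proteins without a DNA-binding region. They pair with basic helix-loop-helix transcription factors and keep them off DNA, and in mammary epithelium they are linked to growth and to a block of differentiation. Their genes are direct targets of BMP receptors and Smads, and TGF-beta can raise or repress them depending on the cell. Smad6, Smad7, Skil and Bambi are induced by the same signals and dampen them, while Tgfbi encodes a secreted matrix protein named for its induction by TGF-beta. The miR-200 microRNAs hold cells in an epithelial state, mainly by repressing Zeb1 and Zeb2.

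The miR-200 family has 5 members, made from a pair of genomic clusters, on chromosome 4 (miR-200b, miR-200a and miR-429) and chromosome 6 (miR-200c and miR-141). Which of these the labels call Cluster 1 and Cluster 2 is not stated in them. Their mature sequences are shown because they are the agents overexpressed, with the seed (bases 2 to 8, counted from the 5′ end) in capitals; sequences and positions are from RefSeq on build GRCm38.p6. The seed AAUACUG is shared by miR-200b, miR-200c and miR-429, and the seed AACACUG by miR-200a and miR-141. On the minus strand, mmu-miR-200b-3p lies at chr4:156055685-156055706, mmu-miR-200a-3p at chr4:156054911-156054932 and mmu-miR-429-3p at chr4:156053916-156053937. The other pair lies on the minus strand too, mmu-miR-200c-3p at chr6:124718324-124718346 and mmu-miR-141-3p at chr6:124717917-124717938.
mmu-miR-200b-3p: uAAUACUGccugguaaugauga
mmu-miR-200c-3p: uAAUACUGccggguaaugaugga
mmu-miR-429-3p: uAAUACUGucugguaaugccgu
mmu-miR-200a-3p: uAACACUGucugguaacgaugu
mmu-miR-141-3p: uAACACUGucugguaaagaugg

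Each array compared the RNA of one sample with a universal mouse reference RNA from 11 cell lines, in 2 colours. Levels below are log2 ratios of sample over reference, and changes are log2 fold changes of an overexpression against its own vector, with limma's standard error (SE) and adjusted p. Cy3 labelled the samples of Cluster 2, of Clusters 1+2 and of their vectors, with repeats A on slide 1 and repeats B on slide 2. Cy5 labelled those of CDH1 with its vector (slide 3) and of Cluster 1 with its vector (slide 4). Between Cy3 and Cy5 groups, levels cannot be told apart from dye and slide, so they are ordered within each set only. Over all genes, the median difference between a group's repeats was 0.0828 to 0.108, with a correlation between 0.937 and 0.98 (across genes, so not over independent points). For the members the median difference between repeats was 0.09 and the highest was 0.44, over 60 pairs of repeat values of 1 member in 1 group.

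The keratin genes Krt8 and Krt18 and the mesenchymal genes Vim, Fn1 and Sparc were above background on all 16 arrays. Vim and Sparc were lower in Clusters 1+2 (-0.87 and -0.66), and Fn1, Sparc and Krt8 were lower in CDH1 cells (-1.13, -0.99 and -0.55). Krt8 was higher in Cluster 1, Cluster 2 and Clusters 1+2 (0.81, 0.65 and 0.85). Cdh1, which encodes E-cadherin, was higher by 1.21 in Cluster 1, 1.93 in Cluster 2, 2.86 in Clusters 1+2 and 0.61 in CDH1 cells. The miR-200 target Zeb2 was lower by 0.39, 0.77 and 2.10 in Cluster 1, Cluster 2 and Clusters 1+2, and its change of -0.21 in CDH1 cells was not called. Zeb1 was not called in any of the 4 comparisons (0.26, -0.32, 0.00 and -0.41). Of 13 marker genes of leukocytes, endothelium, fibroblasts and adipocytes, none was called in Cluster 1, 1 (Fabp4, -0.59) in Cluster 2, 1 (Fabp4, -1.86) in Clusters 1+2 and 3 in CDH1 cells (Fabp4 0.43, Dcn -0.80 and Thy1 -0.50). The median over the 13 was 0.13, -0.24, -0.01 and -0.35 in these comparisons. Of the leukocyte markers, Ptprc was above background on 6 arrays, Itgam on 7 and Cd68 and Adgre1 on 15. Of the endothelial markers, Cdh5 was on 4, Pecam1 on 5 and Kdr on 10. The fibroblast genes Thy1, Col1a1 and Dcn were on 16 and Pdgfrb on 13, and of the adipocyte genes Adipoq was on 4 and Fabp4 on 15. The part of these markers in the changes below was not tested.

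The members did not move as a block. In Clusters 1+2, 7 of the 8 members tested were called, 6 lower (all 4 Id genes, Smad7 and Tgfbi) and 1 higher (Skil), where 24.7% of all genes were called, 12.6% lower and 12.1% higher. In Cluster 1, 3 were called, all lower (Id1, Id2 and Id3), against 8.26% of all genes in either direction, 4.86% higher and 3.4% lower. In Cluster 2, 1 was called, Skil, which was higher, against 2.75% of all genes in either direction, 1.72% higher and 1.03% lower. In CDH1 cells 4 were called, with Id2, Id3 and Id4 higher and Skil lower, against 14.5% of all genes in either direction, 7.67% higher and 6.81% lower. The median change over the 8 members was -0.11 in Cluster 1, 0.08 in Cluster 2, -0.48 in Clusters 1+2 and 0.17 in CDH1 cells, where the medians of all genes were 0, 0, 0.01 and 0.01. The 8 include Smad7 throughout, although its signal in Cluster 1, CDH1 cells and their Puro vectors was near background. Groups of 2 arrays often lie apart with no call. Both overexpression arrays lay below both vector arrays for 24.3% of all genes in Cluster 1, 22.3% in Cluster 2, 28.3% in Clusters 1+2 and 26.2% in CDH1 cells, and above both for 27%, 21.9%, 29.5% and 28.2%. The plots of levels and of changes show each array and each estimate.

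**Figure D1:**
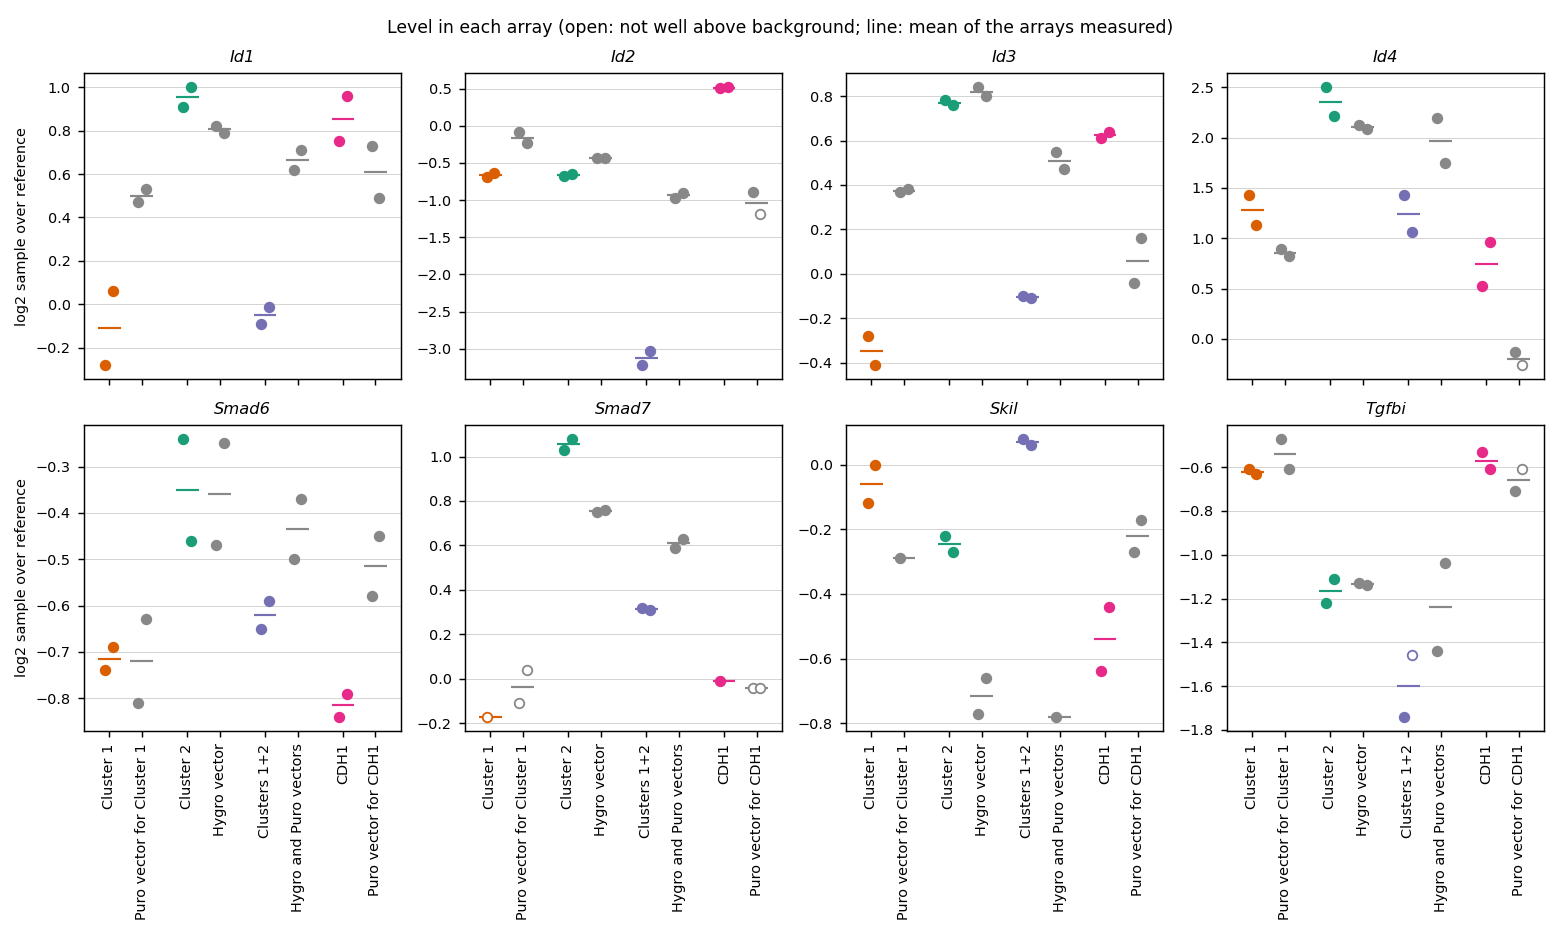
Log2 ratio of sample over reference RNA on each of the 16 arrays for the 8 members tested. Each coloured overexpression group stands left of its grey vector, open points were not well above background, and lines are means. Id2 on the Clusters 1+2 arrays, at -3.22 and -3.03, lies far below the other Cy3 groups, and in CDH1 cells, at 0.51 and 0.52, it lies above the other Cy5 groups.

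**Figure D2:**
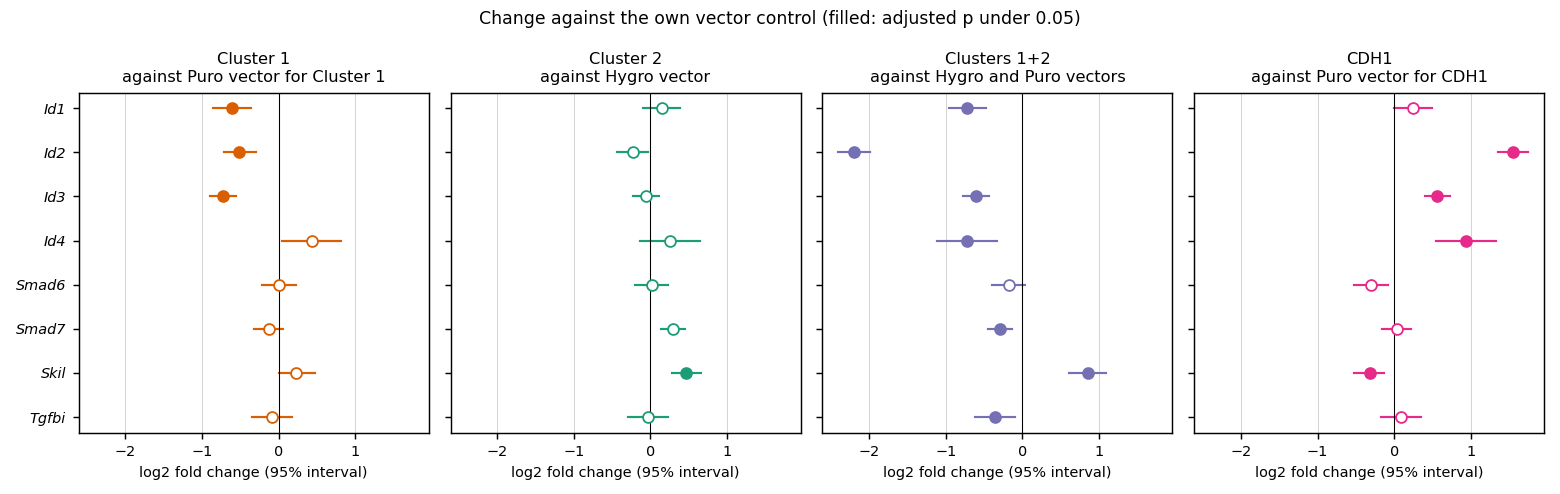
Log2 fold change of each member in each overexpression against its own vector, with the 95% interval of the fit. Filled points had an adjusted p under 0.05. The 4 Id genes lie left of 0 in Clusters 1+2 (-2.19 to -0.61) and right of 0 in CDH1 cells (0.24 to 1.55). Smad7 is drawn in Cluster 1 and CDH1 cells too, but was near background there and is not read as a fold.

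Id2, which pairs with E proteins and also binds the retinoblastoma protein, had the widest range of the members. Its log2 ratio was -3.22 and -3.03 in Clusters 1+2, against -0.97 and -0.90 with the Hygro and Puro vectors. It was 0.51 and 0.52 in CDH1 cells, against -0.89 and -1.18 in their Puro vector, where 1 of the 2 arrays was above background. The groups lay far apart in both comparisons, on opposite sides of their vectors. Id2 fell by 2.19 in Clusters 1+2 (SE 0.0937, adjusted p = 6.59e-09), to 0.219 of the vector level and the 17th lowest change of 18961 genes. It rose by 1.55 in CDH1 cells (SE 0.0937, adjusted p = 6.22e-07), the 4th highest change of 18984 genes. Since the arrays measure whole cultures, fewer cells with Id2 and less Id2 RNA per cell cannot be told apart.

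Cluster 1 cells had Id2 ratios of -0.69 and -0.64, against -0.09 and -0.23 in their Puro vector. The fall of 0.51 (SE 0.0937, adjusted p = 0.00512) ended as a call when either replicate A was left out, that of Cluster 1 (-0.48, adjusted p = 0.0521) or that of the Puro vector (-0.44, adjusted p = 0.058). In Cluster 2 the ratios were -0.68 and -0.65, against -0.44 and -0.43 in the Hygro vector, a difference of -0.23 that was not called (adjusted p = 0.275). Within the Cy3 set Id2 stood highest in the Hygro vector, then in Cluster 2, the Hygro and Puro vectors and Clusters 1+2, and no neighbours in that order overlapped. In the Cy5 set the order was CDH1, the Puro vector for Cluster 1, Cluster 1 and the Puro vector for CDH1, again without overlap. The probe used lies on chromosome 12 (chr12:22930541-22930600, minus strand, build mm7), and whether it lies in coding sequence was not determined for any probe here.

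Id1 and Id3, both early targets of BMP signals, were lower in Cluster 1 and in Clusters 1+2. Id1 had log2 ratios of -0.28 and 0.06 in Cluster 1, against 0.47 and 0.53 in its Puro vector, and of -0.09 and -0.01 in Clusters 1+2, against 0.62 and 0.71 with both vectors. It fell by 0.61 in Cluster 1 (SE 0.114, adjusted p = 0.00544) and by 0.72 in Clusters 1+2 (SE 0.114, adjusted p = 0.000468). The first of these calls ended without Cluster 1 replicate A (-0.44, adjusted p = 0.0716), and no array decided the second. In Cluster 2 Id1 stood at 0.91 and 1.00, against 0.82 and 0.79 in the Hygro vector, and in CDH1 cells at 0.75 and 0.96, against 0.73 and 0.49 in the Puro vector. The 2 differences were not called, at 0.15 (adjusted p = 0.615) and 0.24 (adjusted p = 0.201), although the groups did not overlap. Within the Cy3 set the order ran from Cluster 2 through the Hygro vector and both vectors to Clusters 1+2 without overlap, and in the Cy5 set the 2 Puro vectors overlapped between CDH1 above and Cluster 1 below. Its probe lies on chromosome 2 (chr2:152478157-152478216, plus strand, build mm7).

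Id3 had log2 ratios of -0.28 and -0.41 in Cluster 1, against 0.37 and 0.38 in its Puro vector. In Clusters 1+2 they were -0.10 and -0.11, against 0.55 and 0.47 with both vectors. CDH1 cells went the other way, at 0.61 and 0.64, against -0.04 and 0.16 in their Puro vector. Repeats lay furthest apart in the Puro vector for CDH1, and no groups overlapped in these 3 comparisons. Id3 fell by 0.72 in Cluster 1 (SE 0.0773, adjusted p = 0.000107), the 23rd lowest change of 18974 genes, and by 0.61 in Clusters 1+2 (adjusted p = 7.17e-05), and it rose by 0.56 in CDH1 cells (adjusted p = 0.000363). All 3 calls held without any single array and under every other alternative that gave a value. In Cluster 2 its ratios, 0.78 and 0.76, lay next to 0.84 and 0.80 in the Hygro vector, a difference of -0.06 (95% interval -0.23 to 0.11). The 4 groups of each dye set did not overlap, with the Hygro vector and CDH1 at the top and Clusters 1+2 and Cluster 1 at the bottom. The probe spans 175 bases of chromosome 4 (chr4:135522597-135522771, plus strand, build mm7).

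Id4, known in the mammary gland as a marker of basal cells, did not follow the other Id genes in Cluster 1. Its log2 ratio was 1.43 and 1.13 there, against 0.89 and 0.82 in the Puro vector, a difference of 0.43 that was not called (adjusted p = 0.2). It was 1.43 and 1.06 in Clusters 1+2, against 2.19 and 1.75 with both vectors, and 2.50 and 2.21 in Cluster 2, against 2.12 and 2.08 in the Hygro vector. CDH1 cells gave 0.53 and 0.96, against -0.13 and -0.26 in their Puro vector, where 1 of the 2 arrays was above background. Repeats of Id4 spread more than those of the other Id genes (SE 0.179). Id4 fell by 0.72 in Clusters 1+2 (adjusted p = 0.00957) and rose by 0.94 in CDH1 cells (adjusted p = 0.00327), the 27th highest change of 18984 genes. That rise was 1.53 with a background offset of 10, 2.22 with the scanner software's processed signals and 0.46 with the mean over both probes (adjusted p = 0.0692). The dimmer probe gave -0.03 in CDH1 cells, and the brighter one -0.11 against the other Puro vector. The fall ended as a call without the vectors' replicate A (-0.50, adjusted p = 0.0966) or Clusters 1+2 replicate B (-0.54, adjusted p = 0.1). The 0.25 in Cluster 2 was not called (adjusted p = 0.57). In the Cy3 set both sets of vector arrays overlapped, below Cluster 2 and above Clusters 1+2, and in the Cy5 set CDH1 overlapped the Puro vector for Cluster 1, between Cluster 1 above and the Puro vector for CDH1 below. The probe lies on chromosome 13 (chr13:47746118-47746177, plus strand, build mm7).

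The promoters of Id2, Id3 and Id4 are shown because these genes were called in CDH1 cells and in Clusters 1+2. Each is the window of 250 bases before the gene's start, from RefSeq on build GRCm38.p6, at chr12:25096093-25096342 (minus strand) for Id2, chr4:136143572-136143821 (plus strand) for Id3 and chr13:48260866-48261115 (plus strand) for Id4. Promoters of 5 of the 9 members were matched, with Smad6 and Tgfbi beside these. Capitals mark the motifs found on either strand, from CAGAC (a core to which Smad3 and Smad4 bind, GTCTG on the other strand), GGCGCC (a GC-rich Smad site) and CAGGTG (the E-box bound by Zeb proteins).
Id2 promoter: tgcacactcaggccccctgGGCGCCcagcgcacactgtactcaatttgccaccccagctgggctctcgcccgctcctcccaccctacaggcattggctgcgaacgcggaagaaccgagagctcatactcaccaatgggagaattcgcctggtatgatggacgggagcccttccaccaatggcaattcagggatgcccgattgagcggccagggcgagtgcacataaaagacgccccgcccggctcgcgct
Id3 promoter: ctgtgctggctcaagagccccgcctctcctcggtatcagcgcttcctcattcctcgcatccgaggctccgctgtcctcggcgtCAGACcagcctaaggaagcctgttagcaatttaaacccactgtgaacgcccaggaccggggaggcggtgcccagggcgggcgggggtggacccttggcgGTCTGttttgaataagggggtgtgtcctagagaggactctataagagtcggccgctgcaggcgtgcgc
Id4 promoter: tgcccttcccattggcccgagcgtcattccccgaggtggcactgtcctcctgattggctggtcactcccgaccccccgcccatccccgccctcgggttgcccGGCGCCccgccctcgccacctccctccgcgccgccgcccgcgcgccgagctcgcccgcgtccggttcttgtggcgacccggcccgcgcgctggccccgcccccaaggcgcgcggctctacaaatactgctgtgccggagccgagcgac

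Id3 held 2 matches of CAGAC, at 167 and 68 bases before the start, and Tgfbi also held 2, whereas Id2, Id4 and Smad6 held none. GGCGCC occurred once each in Id2, Id4 and Tgfbi. These windows were 62.8%, 75.6% and 62.4% G and C, against a median of 52.4% over all windows. Id3 (62.8%) and Smad6 (66.8%), without a match, were also above that median. The shares of all windows given below are not adjusted for this. CAGGTG was in none of the 5 windows. Of 32851 mouse promoter windows of the same length, 42.2% held CAGAC, 9.59% held GGCGCC and 17.2% held CAGGTG, and the searched motifs do not overlap one another in the printed windows. A match is a run of letters, and binding was not measured here.

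Skil, also called SnoN, encodes a nuclear protein that binds Smads and represses their targets. Skil rose in Clusters 1+2, where the Id genes fell. Its log2 ratio was 0.08 and 0.06 in Clusters 1+2, against -0.78 with both vectors on the 1 array that gave a value. It was -0.22 and -0.27 in Cluster 2, against -0.77 and -0.66 in the Hygro vector. In CDH1 cells it was -0.64 and -0.44, against -0.27 and -0.17 in the Puro vector. Both Cy3 overexpressions lay above their vectors and CDH1 lay below its vector, with no overlap. Without the vectors' replicate A there is no value for Clusters 1+2. Skil rose by 0.85 in Clusters 1+2 (SE 0.107, adjusted p = 0.000175) and by 0.47 in Cluster 2 (SE 0.0875, adjusted p = 0.0165), and it fell by 0.32 in CDH1 cells (adjusted p = 0.0322). The Cluster 2 call ended without any one of its 4 arrays: 0.41 and 0.53 without Hygro vector replicates A and B (adjusted p = 0.0684 and 0.0537), and 0.44 and 0.49 without Cluster 2 replicates A and B (adjusted p = 0.0685 and 0.0703). The CDH1 call ended without Puro vector replicate A (-0.38, adjusted p = 0.0576) or B (-0.27, adjusted p = 0.179) or CDH1 replicate A (-0.22, adjusted p = 0.217). Cluster 1 cells, at -0.12 and 0.00 against -0.29 on 1 Puro vector array, were not called (0.23, adjusted p = 0.266). No neighbouring groups overlapped in either dye set, where Clusters 1+2 and Cluster 1 stood highest. The probe lies on chromosome 3 (chr3:30934287-30934346, plus strand, build mm7).

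Smad7, an inhibitory Smad that blocks the TGF-beta and BMP receptors, was above background on all 8 Cy3 arrays. Its log2 ratio was 0.32 and 0.31 in Clusters 1+2, against 0.59 and 0.63 with both vectors, and 1.03 and 1.08 in Cluster 2, against 0.75 and 0.76 in the Hygro vector. The 4 groups did not overlap, and the overexpressions lay on opposite sides of their vectors. Smad7 fell by 0.29 in Clusters 1+2 (SE 0.0698, adjusted p = 0.0103). This call ended without the vectors' replicate B (-0.28, adjusted p = 0.0581) or Clusters 1+2 replicate B (-0.29, adjusted p = 0.0581). The 0.30 in Cluster 2 missed the threshold (adjusted p = 0.0521) and passed it with slide as a block (0.30, adjusted p = 0.0483). In the Cy5 set it was above background on 1 array of Cluster 1, 1 of CDH1 and none of either Puro vector, with ratios between -0.17 and 0.04 over 6 arrays, so no fold is given there.

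Smad6, an inhibitory Smad that acts mainly on BMP receptors, was above background on all 16 arrays and was called in none of the 4 comparisons. In CDH1 cells its log2 ratio was -0.84 and -0.79, against -0.58 and -0.45 in the Puro vector, a difference of -0.30 (95% interval -0.52 to -0.08, adjusted p = 0.0679). In Clusters 1+2 it was -0.65 and -0.59, against -0.50 and -0.37 with both vectors, a difference of -0.18 (95% interval -0.40 to 0.03). Arrays of these groups did not overlap, yet neither difference passed the test. Cluster 1 (-0.74 and -0.69, against -0.81 and -0.63) and Cluster 2 (-0.24 and -0.46, against -0.47 and -0.25) overlapped their vectors, with differences of 0.01 (95% interval -0.21 to 0.23) and 0.02 (95% interval -0.20 to 0.23). Smad6 spanned only -0.84 to -0.24 over the 16 arrays. Its probe lies on chromosome 9 (chr9:63982002-63982061, minus strand, build mm7).

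Tgfbi, the secreted matrix protein, was called in Clusters 1+2 only among the 4 comparisons. Its log2 ratio there was -1.74 and -1.46, with 1 of the 2 arrays above background, against -1.44 and -1.04 with both vectors. The 2 groups lay side by side and were barely apart at their nearest arrays. The fall of 0.36 (SE 0.121, adjusted p = 0.0476) ended as a call without the vectors' replicate B (-0.16, adjusted p = 0.43) or Clusters 1+2 replicate A (-0.22, adjusted p = 0.341). In Cluster 1 (-0.61 and -0.63, against -0.47 and -0.61) the difference was -0.09, in Cluster 2 (-1.22 and -1.11, against -1.13 and -1.14) it was -0.03, and in CDH1 cells (-0.53 and -0.61, against -0.71 and -0.61, the second of them not above background) it was 0.09. None of these was called, with adjusted p between 0.726 and 0.955. The probe lies on chromosome 13 (chr13:55730801-55730860, plus strand, build mm7).

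Bambi, which encodes a membrane pseudoreceptor that interferes with TGF-beta and BMP receptors, had 2 probes and a signal well above background on 0 of 16 arrays with either. No change is given for it. The remaining 8 members were saturated on 0 arrays.

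Of the 9 members, 5 had a second probe, and for Id1, Id2, Id4 and Skil both could be compared, with p-values here adjusted over all 27090 probes kept. The second Id2 probe, elsewhere in the gene (chr12:22931820-22932167, build mm7), gave -1.93 in Clusters 1+2 (adjusted p = 1.27e-08) and -0.54 in Cluster 1 (adjusted p = 0.00213). For CDH1 cells it gave 0.92 (adjusted p = 0.000107). The second probe's CDH1 value rests on 1 array of the Puro vector, not above background, and so adds little to that of the first probe. In Cluster 1 and Clusters 1+2 both Id2 probes were called lower. The second Id1 probe overlaps the first by most of its length and gave -0.72 in Clusters 1+2 (adjusted p = 0.0106), but its -0.47 in Cluster 1 was not called (adjusted p = 0.178). For Id4 the dimmer probe gave -0.44 in Clusters 1+2 (adjusted p = 0.0292) but -0.03 in CDH1 cells (adjusted p = 0.934), so the 2 probes differ on the rise in CDH1 cells. That probe was above background on 0 of the 2 Puro vector arrays. The dimmer Skil probe gave 0.80 in Clusters 1+2 (adjusted p = 0.000281), whereas its 0.28 in Cluster 2 (adjusted p = 0.305) and -0.02 in CDH1 cells (adjusted p = 0.956) were not called. It was not above background on any Cy5 array.

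**Figure D3:**
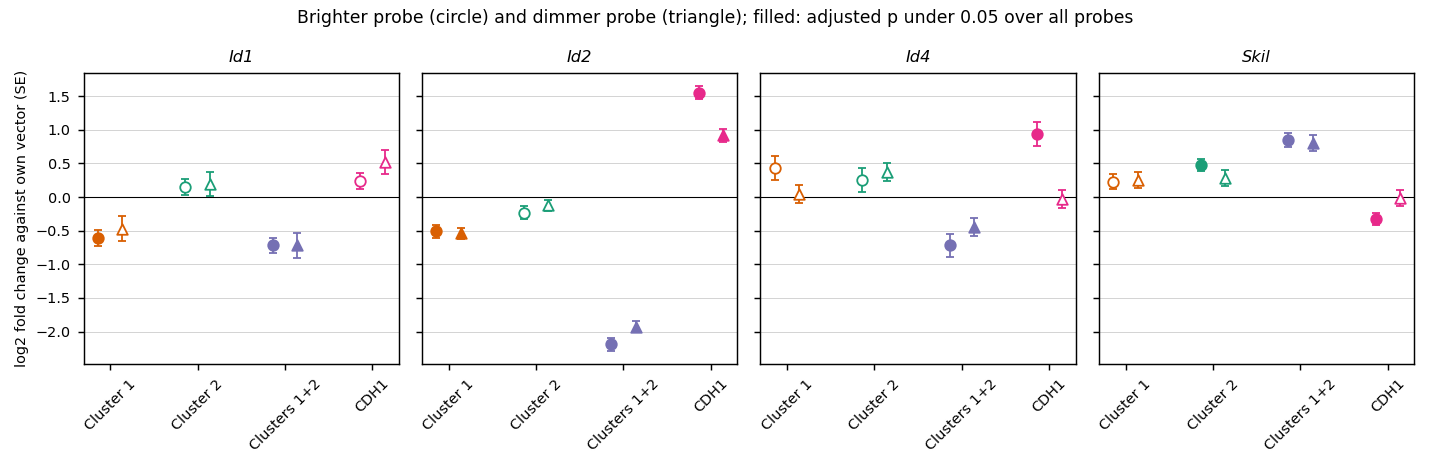
Log2 fold change against the own vector (points, with SE) by the brighter probe (circle) and the dimmer probe (triangle) of 4 members. Filled points had an adjusted p under 0.05 over all probes. In Clusters 1+2 both probes of each member were called in the same direction. The pairs lie further apart in CDH1 cells, at 0.24 and 0.52 for Id1 and 1.55 and 0.92 for Id2. There Id4 gave 0.94 and -0.03, and Skil -0.32 and -0.02.

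CDH1 and Cluster 1 each have a Puro vector that the labels describe alike, which lets the dependence on the control be seen. The comparisons share arrays, so their values are given side by side. Between the 2 Puro vectors, for Cluster 1 over for CDH1, 3 members were called and higher, Id2 by 0.87 (adjusted p = 8.64e-05), Id3 by 0.32 (adjusted p = 0.0201) and Id4 by 1.05 (adjusted p = 0.00233), against 10% of all genes in either direction, 4.87% higher and 5.16% lower. The dimmer Id4 probe gave 0.2 between these vectors, not called (adjusted p = 0.477). The vectors lay on different slides, so slide and culture cannot be told apart. Without Puro vector for CDH1 replicate A, or without either array of the Puro vector for Cluster 1, the Id3 call ended (0.21, 0.32 and 0.31, adjusted p = 0.151, 0.0918 and 0.0927).

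Against the Puro vector for Cluster 1, 1 member was called in CDH1 cells, against 2.4% of all genes in either direction, 1.25% higher and 1.15% lower. Id2 was higher by 0.67 (SE 0.0937, adjusted p = 0.00275), and also by its second probe (0.53, adjusted p = 0.00779). Id3, at 0.25 (adjusted p = 0.138), and Id4, at -0.11 (adjusted p = 0.89), were not called against that vector, and neither was Skil (-0.25, adjusted p = 0.317). Of the 4 members called in CDH1 cells against their own vector, Id2 was thus the member also called against the other.

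Cluster 1 against the Puro vector for CDH1 gave 4 members called, against 8.63% of all genes in either direction, 4.8% higher and 3.84% lower. Id1, lower by 0.72 (adjusted p = 0.00157), and Id3, lower by 0.40 (adjusted p = 0.00574), kept the direction they had against their own vector. The Id3 call ended without Puro vector for CDH1 replicate B (-0.30, adjusted p = 0.0614) or Cluster 1 replicate B (-0.34, adjusted p = 0.0634). Id4 was higher by 1.48 (SE 0.179, adjusted p = 0.000231), and by 0.86 to 3.57 over the alternatives. Its dimmer probe gave 0.25, not called (adjusted p = 0.384). Id2 changed its sign with the vector, at -0.51 against its own and 0.37 against the other (adjusted p = 0.0281), and the second probe gave -0.15 there, not called (adjusted p = 0.536). The call of 0.37 ended without Puro vector for CDH1 replicate B (0.23, adjusted p = 0.246) and without Cluster 1 replicate A (0.39, adjusted p = 0.1) or B (0.35, adjusted p = 0.147). The change of sign was thus seen with the brighter probe, whose signal in the Puro vector for CDH1 was above background on 1 of 2 arrays, and not with the second, which was negative against both vectors.

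**Figure D4:**
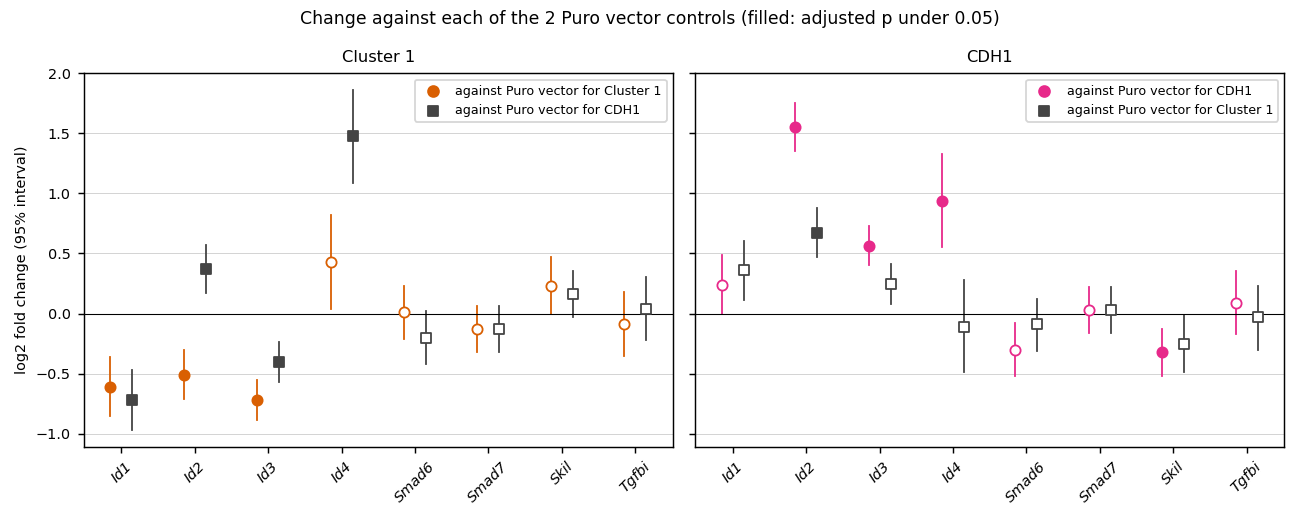
Log2 fold change with 95% interval of each member in Cluster 1 (left) and CDH1 cells (right), against the own Puro vector (circles) and the other one (squares). Id1 and Id3 lie below 0 against both vectors in Cluster 1 and Id2 above 0 against both in CDH1 cells, while Id2 in Cluster 1, by its brighter probe, lies at -0.51 and 0.37. Smad7 was near background in these groups and is not read as a fold.

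Clusters 1+2 and Cluster 2 were on the same slides, which gives each change within a slide. For Clusters 1+2 the changes on slides 1 and 2 were -2.25 and -2.14 for Id2, -0.71 and -0.72 for Id1, and -0.65 and -0.57 for Id3. Id4 gave -0.76 and -0.69, Smad7 -0.27 and -0.32, and Tgfbi -0.30 and -0.42. These 6 were called lower from the same arrays, and for each both Clusters 1+2 arrays lay below both vector arrays. A fall on each slide was therefore fixed in advance and is no separate support. In Cluster 2, Skil gave 0.55 and 0.39 and Smad7 0.28 and 0.31. Skil in Clusters 1+2 had a value on slide 1 alone, 0.86.

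The differences between effects were tested in the same model. The effect of Clusters 1+2 differed from that of Cluster 2 for 5 members, all 4 Id genes and Smad7, and each was the lower in Clusters 1+2, against 6.2% of all genes in either direction, 2.89% higher and 3.31% lower. It differed from that of Cluster 1 for 3 members (Id2, Id4 and Skil), against 15.6% of all genes in either direction, 7.26% higher and 8.34% lower, in a comparison that spans both dyes. The effect of Cluster 1 differed from that of Cluster 2 for 2 members, Id1 and Id3, both lower in Cluster 1, against 2.66% of all genes in either direction, 1.71% higher and 0.951% lower. From the effect of CDH1 it differed for 4 members, Id1, Id2 and Id3 (lower in Cluster 1) and Skil (higher), against 17% of all genes in either direction, 8.77% higher and 8.25% lower. This last difference also includes the one between the 2 Puro vectors. The sizes are given in the closing section.

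The wider pathway was followed through 7 lists of other TGF-beta and BMP genes and of the partners of Id proteins, 108 genes in all, of which 107 were on the array. In Clusters 1+2, 13 of 97 tested rose and 20 fell, where 12.1% of all genes were higher and 12.6% lower. In Cluster 1, 10 of 96 rose and 2 fell, where 4.86% and 3.4% of all genes did. In Cluster 2, 7 of 97 rose and 1 fell, where 1.72% and 1.03% of all genes did. In CDH1 cells 4 of 97 rose and 12 fell, where 7.67% and 6.81% of all genes did. The medians over all lists were -0.01, 0.08, -0.02 and -0.09 in that order, near those of all genes. Among the basic helix-loop-helix partners of Id proteins, 4 of 8 fell in Clusters 1+2, the E protein genes Tcf3 (-0.65), Tcf4 (-0.78) and Tcf12 (-0.44) and the mesenchymal factor Twist1 (-0.72), and none was called in the other comparisons. These 4 are named after their values were seen.

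Among the ligands, Inhba, a subunit of activin A, had log2 ratios of -0.45 and -0.53 in Clusters 1+2, against -1.78 and -1.73 with both vectors, and rose by 1.27 (adjusted p = 3.06e-06). It also rose by 0.52 in Cluster 2 (adjusted p = 0.0239) and by 0.46 in Cluster 1 (adjusted p = 0.0232). Tgfb3 rose by 0.83 in Cluster 1 (adjusted p = 2.97e-05), and Inhbb, at -1.78 and -1.92 in CDH1 cells against -1.22 and -1.23 in the Puro vector with 1 array above background, fell by 0.62 (adjusted p = 0.00092). Of the receptors and co-receptors, Rgma, a BMP co-receptor, was at -0.73 and -0.64 in Clusters 1+2, against 0.82 and 0.75 with both vectors. It fell by 1.47 (adjusted p = 3.35e-08), beside 3 other genes of that list that fell and 1 that rose, and by 0.43 in Cluster 2 (adjusted p = 0.00871). Signalling Smads and their nuclear partners had 1 call in each direction among 12 in Clusters 1+2, where 24.7% of all genes were called. In CDH1 cells 2 of the 12 rose and 1 fell, where 7.67% and 6.81% of all genes did. None was called in Cluster 1 or Cluster 2.

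The list of other response genes of TGF-beta and BMP held several of the larger changes. Ccn2, a matricellular protein gene, was at 0.00 and 0.07 in Clusters 1+2, against -1.92 and -1.84 with both vectors, and rose by 1.92 (adjusted p = 1.86e-06). Thbs1, whose product activates latent TGF-beta, rose by 1.85 in Clusters 1+2 (adjusted p = 8.89e-06), by 1.17 in Cluster 2 (adjusted p = 0.00325) and by 0.82 in Cluster 1 (adjusted p = 0.0144). Ccn1 rose by 1.15 in Clusters 1+2 (adjusted p = 7.14e-06) and by 0.43 in Cluster 1 (adjusted p = 0.0309). Angptl4, a secreted lipase inhibitor, rose by 0.58 in Cluster 2 (adjusted p = 0.0285). In Cluster 1, Ccn2 rose by 0.92 (adjusted p = 0.00325) and the transglutaminase gene Tgm2 by 0.92 (adjusted p = 8.65e-05), whereas Tgm2 fell by 0.88 in CDH1 cells (adjusted p = 6.24e-05). Over the list of 23 tested, 7 rose and 3 fell in Clusters 1+2, 4 rose and 1 fell in Cluster 1, 3 rose in Cluster 2, and 1 rose and 3 fell in CDH1 cells, among the last Cdkn2b (-0.66, adjusted p = 0.0432, 1 of 2 Puro vector arrays above background).

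Secreted and intracellular inhibitors gave mixed calls. Ltbp2, of the latent TGF-beta binding protein family, was at -1.31 and -1.34 in CDH1 cells, against 0.10 and 0.07 in the Puro vector, and fell by 1.41 (adjusted p = 1.83e-07). In Cluster 1 it was at -0.29 and -0.33, against -1.19 and -1.23 in the Puro vector, and rose by 0.90 (adjusted p = 1.53e-05). Decorin (Dcn), which binds TGF-beta, fell by 0.80 in CDH1 cells (adjusted p = 0.0247), and it also belongs to the fibroblast markers above. Pmepa1, a membrane protein that limits Smad2 and Smad3, was at 0.73 and 0.71 in Cluster 2, against -0.01 and -0.28 in the Hygro vector, and rose by 0.87 (adjusted p = 0.000129). Pmepa1 also rose by 0.38 in Cluster 1 (adjusted p = 0.0216). In Cluster 2 it was the 1 gene called among the 11 intracellular inhibitors tested, where 2.75% of all genes were called.

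**Figure D5:**
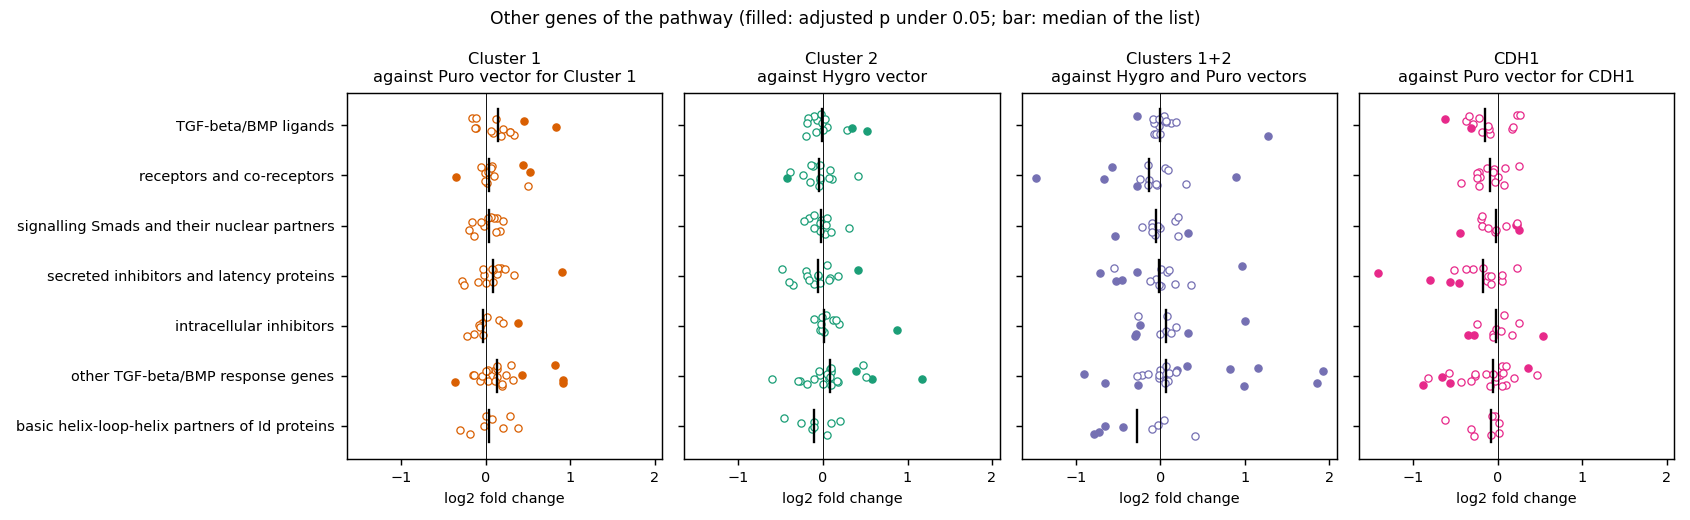
Log2 fold change against the own vector for the other genes of the pathway, in 7 lists, with one point per gene. Filled points had an adjusted p under 0.05 and the bar is the median of the list. Partners of Id proteins lie to the left in Clusters 1+2, with 4 of 8 called lower.

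Genes whose changes ran most like a member's were found by cosine similarity over 8 values (each overexpression array minus the mean of its vector). This is a description over arrays that share a line and a platform. Candidates were genes called in at least 1 comparison with the own vector where the member was called. They numbered 2064 to 2244 for the members named here, so high similarities are partly built in. For Id3 the nearest was Apcdd1, an inhibitor of Wnt signalling, at 0.989, with changes of -1.01, -0.11, -0.98 and 0.74 in Cluster 1, Cluster 2, Clusters 1+2 and CDH1 cells. For Id2 it was Ubash3b, a phosphatase gene, at 0.989, with changes of -0.25, -0.16, -0.93 and 0.81 in that order. For Id1 it was Hjurp, a centromere chaperone gene, at 0.964, and for Id4 it was Agt, the angiotensinogen gene, at 0.955. Skil ran most like Tagln2, an actin-binding protein gene, at 0.985, followed by Igfbp7 and Rnpep at 0.98.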

How the data were processed

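RNA of 16 samples (8 groups of 2) was hybridised with 1 universal mouse reference, from 175 ng per labelling. Deposited scanner files gave, for each spot and channel, the mean intensity, the median of the local background and a processed intensity, made with Agilent Feature Extraction 9.5.3.1 per the file headers for array design 014868, with probe positions on mm7. The deposited series values hold a linear ratio per spot, which matched processed sample over processed reference on all 16 arrays (largest log10 difference 8.06e-08, column medians 0.903 to 1.175), so its direction and scale are known and no further centring was found.

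Spots the software marked (335 to 1675 per array) were set missing, background was corrected (normexp, offset 50), and arrays were normalised by loess in limma 3.58.1 (R 4.3.3) with control spots at weight 0. Spots of a probe were averaged, a probe was kept where the sample's signal was well above background on each array of 1 or more groups, and the brightest probe stood for a gene; 22951 probes were named by accession, 6659 by symbol and 3109 by synonym, and 8455 kept the file's name. One limma model with 8 group means was fitted over 16 arrays, and a call means an adjusted p (Benjamini-Hochberg, two-sided, across the genes tested) below 0.05. Of the 18993 genes, 16164 had a value on all 16 arrays. Pooling assumes equal spread in all groups, and the number of arrays limits the precision. The fit was tested on simulated data with independent noise on each array, which does not cover the shared slides of the Cy3 groups.

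Repeat letters pair the Cy3 groups, which share slides: differences between repeats correlated at 0.238 to 0.423 in all 6 pairs of groups. The members, lists, removal of marked spots and the naming rule (all members; per comparison the 5 called list genes of largest change; the 3 genes most like each member with a root mean square of at least 0.3) were chosen with earlier results of these data known. Alternatives were offset, marked spots, processed signals, centring, scaling, sample channel, filters, probe means, blocks, fewer groups and each array left out. The genes most like Tgfbi and Smad7 are not reported here. Promoters and microRNAs are from RefSeq tables; no genome was used.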

Additional observations from a re-analysis of the deposited data

Results flagged for a closer look

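Differences between the effects of 2 overexpressions, each against its own vector, were tested directly by limma, with p-values adjusted over all genes. The members called are given here, and the share of all genes called in each difference is given above. For Id2 the effect of Clusters 1+2 minus that of Cluster 2 was -1.96 (adjusted p = 5.75e-06), that of Clusters 1+2 minus Cluster 1 was -1.69 (adjusted p = 5.24e-06) and that of Cluster 1 minus CDH1 was -2.05 (adjusted p = 8.75e-07). Id1 differed by -0.86 between Clusters 1+2 and Cluster 2 (adjusted p = 0.00611), by -0.76 between Cluster 1 and Cluster 2 (adjusted p = 0.0274) and by -0.85 between Cluster 1 and CDH1 (adjusted p = 0.00265). Id3 differed by -0.55 (adjusted p = 0.00876), -0.66 (adjusted p = 0.00702) and -1.28 (adjusted p = 7.22e-06) in the same 3 differences. Id4 differed by -0.98 between Clusters 1+2 and Cluster 2 (adjusted p = 0.0393) and by -1.15 between Clusters 1+2 and Cluster 1 (adjusted p = 0.00798). Smad7 differed by -0.59 between Clusters 1+2 and Cluster 2 (adjusted p = 0.0052). Skil differed by 0.61 between Clusters 1+2 and Cluster 1 (adjusted p = 0.0195) and by 0.56 between Cluster 1 and CDH1 (adjusted p = 0.0183). The vectors of Clusters 1+2 and of Cluster 1 gave a Skil value on 1 array each, so these differences rest on single vector arrays whose spread is taken from the other groups, and there is no value without them. Differences between Clusters 1+2 or Cluster 2 and Cluster 1 span both dyes, and the part of the dye was not tested. Those between Cluster 1 and CDH1 include the difference between their 2 Puro vectors. For Cluster 1 over for CDH1, this was 0.87 for Id2, 0.32 for Id3, -0.11 for Id1 and -0.07 for Skil. The part of the vectors was not tested. The second Id2 probe gave -1.46 for Cluster 1 minus CDH1, with a value on 1 array of the Puro vector for CDH1.

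Single arrays ended 4 of these calls. The Id1 difference between Cluster 1 and Cluster 2 was not called without Hygro vector replicate B (-0.74, adjusted p = 0.0896), Cluster 2 replicate B (-0.71, adjusted p = 0.0857), Cluster 1 replicate A (-0.59, adjusted p = 0.113) or Puro vector for Cluster 1 replicate A (-0.79, adjusted p = 0.073) or B (-0.72, adjusted p = 0.0902). Id4 between Clusters 1+2 and Cluster 2 was not called without either Hygro vector array (-0.99 and -0.96, adjusted p = 0.0668 and 0.104), Cluster 2 replicate A (-0.83, adjusted p = 0.108), Hygro and Puro vectors replicate A (-0.75, adjusted p = 0.115) or Clusters 1+2 replicate B (-0.79, adjusted p = 0.143). Skil between Clusters 1+2 and Cluster 1 was not called without Clusters 1+2 replicate A (0.60, adjusted p = 0.0534) or Cluster 1 replicate A (0.55, adjusted p = 0.0625). Between Cluster 1 and CDH1 it was not called without Cluster 1 replicate B (0.50, adjusted p = 0.0604), CDH1 replicate A (0.46, adjusted p = 0.0569) or Puro vector for CDH1 replicate B (0.50, adjusted p = 0.059).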

How the results depend on the processing

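Over all alternatives that gave a value, Id1, Id2 and Id3 stayed lower in Clusters 1+2 (-0.76 to -0.57, -2.31 to -1.64 and -0.77 to -0.49), Id3 stayed lower in Cluster 1 (-0.95 to -0.65), and Id2 and Id3 stayed higher in CDH1 cells (1.17 to 2.36 and 0.46 to 0.83). No called change turned its sign under any of these alternatives. Id4, Smad7 and Tgfbi in Clusters 1+2 kept their calls in 8 of 15 alternatives each, Skil there in 14 of 15 (0.95, adjusted p = 0.0736, with the sample channel alone), Skil in Cluster 2 in 5 of 16 and in CDH1 cells in 4 of 15, and Id4 in CDH1 cells in 12 of 14, lost with marked spots kept (0.85, adjusted p = 0.364) and with the mean over its probes (0.46, adjusted p = 0.0692). Id1 and Id2 in Cluster 1 kept theirs in 12 of 15 and 11 of 14. The number of members called in Cluster 1 was 1 in place of 3 with marked spots kept. Id4 was called higher there with only the compared groups, and with the sample channel alone, where Id1 was not called. In Cluster 2 the number was 0 in place of 1 with offset 10, marked spots kept, processed signals, scaled arrays, the sample channel alone or only the compared groups. It was 2 with slide as a block, and 3 with median centring. In Clusters 1+2 it was 4 in place of 7 with scaled arrays, the sample channel alone or only the compared groups, and 3 with probes above background on all 16 arrays, where fewer members are tested. Other settings also lost calls there. These were Id4 and Smad7 with offset 10 or processed signals, Id4 and Tgfbi with marked spots kept, and Tgfbi with no filter. In CDH1 cells the number was 2 in place of 4 with the mean over probes. Skil also lost its call there with offset 10, processed signals, median centring, scaled arrays, the sample channel alone, no filter or only the compared groups. With probes above background throughout, Id2 and Id4 were not tested. CDH1 against the Puro vector for Cluster 1 gave 0 in place of 1 with marked spots kept or processed signals, and 2 with median centring, the sample channel alone or probes above background throughout. Cluster 1 against the Puro vector for CDH1 gave 0 in place of 4 with marked spots kept and 2 with probes above background throughout, and the 2 Puro vectors gave 0 and 1 in place of 3. In the first of these, Id2 also lost its call with processed signals, no filter, the mean over probes or only the compared groups. Id3 lost its call there with median centring or the sample channel. Between the Puro vectors, Id3 lost its call with only the compared groups, and the sample channel added Id1. For the difference of Clusters 1+2 and Cluster 2 the count was 5, but 3 with marked spots kept, 2 with offset 10, processed signals, the sample channel or probes above background throughout, and 1 with scaled arrays. Id4 also lost its call there with no filter or only the compared groups. For Clusters 1+2 and Cluster 1 it was 3, but 1 with processed signals, scaled arrays or probes above background throughout. Skil also lost its call there with offset 10, median centring, the sample channel or the mean over probes, and Id4 with marked spots kept. For Cluster 1 and Cluster 2 it was 2, but 0 with marked spots kept, 4 with median centring, and 1 with offset 10, processed signals, scaled arrays, the sample channel, no filter or only the compared groups. For Cluster 1 and CDH1 it was 4, but 2 with the sample channel. Skil also lost its call there with marked spots kept, median centring or the mean over probes. Processed signals added Smad7 (-1.50, adjusted p = 0.0455), near background in these groups, and Tgfbi (-0.80, adjusted p = 0.0272). Id2 was not tested there with probes above background throughout. The causes were not tested. Leaving out 1 array gave 1 to 3 members in Cluster 1, 0 in Cluster 2, 5 to 6 in Clusters 1+2 and 3 to 4 in CDH1 cells. It gave 1 for CDH1 against the Puro vector for Cluster 1, 2 to 4 for Cluster 1 against the Puro vector for CDH1, 2 to 3 between the Puro vectors, and 4 to 5, 2 to 3, 1 to 2 and 3 to 4 for the differences in the order above. The replicate block changed no count of members (3, 1, 7 and 4 in the comparisons with the own vector); in the Cy5 set the letters correlated at -0.0103 to 0.0683 and so do not pair the samples. With slide as a block, which pairs the Cy3 groups, Smad7 in Cluster 2 passed the threshold (adjusted p = 0.0483). With median centring the median change of all genes was 0.134 in Cluster 2 and 0.106 in CDH1 cells, against which Id1 (0.47 and 0.45), called there under that setting, is to be read. Counts over all genes ran from 191 to 2270 in Cluster 1 (1568 as reported), 60 to 2278 in Cluster 2 (521), 1860 to 5034 in Clusters 1+2 (4688) and 1243 to 3828 in CDH1 cells (2749). Processed signals gave Smad7 at 1.28 in CDH1 cells (adjusted p = 0.0249), where its probe was above background on 1 of 4 arrays. Signal over background limits Smad7 in the Cy5 groups, Id2 and Id4 in the Puro vector for CDH1, and Bambi throughout.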
